A study of Saccharomyces cerevisiae with 5 samples.

Results

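The cytosolic Hsp70 and Hsp110 chaperones of budding yeast were examined in the chs2Δ strain on oligonucleotide microarrays. The set held 10 genes, chosen by symbol and matched to the array by systematic name: SSA1 (YAL005C), SSA2 (YLL024C), SSA3 (YBL075C), SSA4 (YER103W), SSB1 (YDL229W), SSB2 (YNL209W), SSZ1 (YHR064C), ZUO1 (YGR285C), SSE1 (YPL106C) and SSE2 (YBR169C). ZUO1 encodes no Hsp70 and was included as the J-domain partner of Ssz1p. All 10 were found among the 6256 genes on the array and all 10 were tested. For comparison they were divided into the stress-induced genes SSA3, SSA4 and SSE2, the ribosome-bound genes SSB1, SSB2, SSZ1 and ZUO1, and the remaining genes SSA1, SSA2 and SSE1.

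Hsp70 proteins bind exposed hydrophobic stretches of unfolded proteins and release them in a cycle driven by ATP. J-domain proteins start the cycle by stimulating ATP hydrolysis, and nucleotide exchange factors, among them the Hsp110 proteins, end it by releasing ADP. Yeast divides the work between the Ssa proteins, which act throughout the cytosol and under heat shock, and the Ssb proteins, which sit at the ribosomal exit tunnel with the ribosome-associated complex of Ssz1p and Zuo1p and bind nascent chains.

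Total RNA of YFR23, in which CHS2 was replaced by a kanamycin resistance module, was compared with that of its parent MGD353-46D, the wild type. CHS2 encodes chitin synthase II, which builds the primary septum at cell division. Both strains were MAT α with trp1, ura3, leu2 and his3 markers, so the auxotrophies were common to both, and the deletion was represented by 1 strain. Cultures were grown at 26 °C, and no further treatment was given. For all strains of the study together, the methods name complete synthetic medium with glucose and the same medium without histidine. Neither strain compared here is listed with a HIS5 insert, so by genotype both needed histidine. Each of 5 arrays carried 1 culture of either strain, with chs2Δ in the Cy5 dye on replicates 1, 3 and 5 and in Cy3 on replicates 2 and 4. The arrays lay on 3 slides, the first with replicate 1, another with replicates 2 and 3 and the last with replicates 4 and 5. The titles of the arrays carry the name of another strain, the myo1Δ strain, whereas YFR23 is the strain given as the source of the RNA.

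CHS2 itself had log2 ratios of chs2Δ over wild type of -0.35, -0.56, -0.95, -1.63 and -0.58 on replicates 1 to 5, a mean of -0.81 (SE 0.17, adjusted p = 0.00249, limma). MYO1 had a mean log2 ratio of -0.31 (SE 0.06, adjusted p = 0.0013, limma) and lay nearer to 0 than CHS2 on every array. The position of either probe relative to a deleted stretch was not known, so these ratios do not by themselves identify the strain. The chs2Δ channel was the dimmer one on every array, with a median signal over background of 77.5 to 197 intensity units, against 213 to 431 in the wild type. Within each array a loess curve removed this imbalance at each spot brightness, so every log2 ratio below is relative to genes of like brightness on the same array. At an adjusted p below 0.05 in limma, 2227 of 6246 genes were up-regulated in chs2Δ (35.7%) and 2246 were down-regulated (36%). The ratios of all genes were narrowest on replicate 1, with a median absolute deviation of 0.46 log2, against 0.52 to 0.62 on replicates 2 to 5.

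Of the 10 chaperone genes, 5 were up-regulated in chs2Δ, where 35.7% of all tested genes were, and 4 were down-regulated, where 36% were. The up-regulated genes were SSA1, SSA2, SSA3, SSA4 and SSE2, the down-regulated genes were SSB1, SSB2, SSZ1 and ZUO1, and SSE1 did not pass the test. RNA came from whole cultures, so a change in every cell and a change in the share of cells in a given state cannot be told apart. The median over the 10 genes was 0.19 log2, against -0.01 over all genes tested, but -0.33 with each array centred on its median instead of by loess. The median was 0.93 in the 3 stress-induced genes and -1.65 in the 4 ribosome-bound genes. For 9 of the 10 genes the ratio had the same sign on every array on which it was measured, the exception being SSE1. The matching share over all genes was not counted, so this is not read as particular to the set. With median centring SSE1 was also called lower and SSA2 was not called, which gave 4 up-regulated and 5 down-regulated genes.

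**Figure D1:**
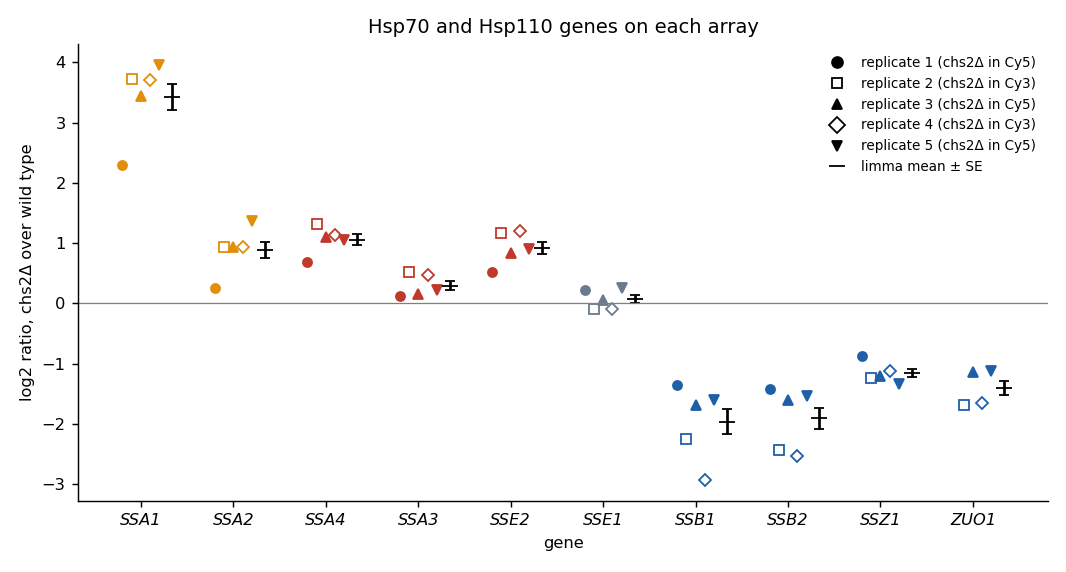
Log2 ratio of chs2Δ over wild type (vertical axis) of the 10 genes on each of 5 arrays, after loess, with the limma mean and SE to the right of each gene. Filled symbols are arrays with chs2Δ in Cy5 and open symbols arrays with chs2Δ in Cy3. All points of SSA1, SSA2, SSA3, SSA4 and SSE2 lie above 0, all points of SSB1, SSB2, SSZ1 and ZUO1 lie below 0, and SSE1 has points on both sides. With median centring SSE1 has a mean of -0.71 and SSA2 of 0.04.

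SSA1 and SSA2 encode the Ssa proteins of unstressed cells, SSA1 being also a classical heat shock gene. SSA1 had log2 ratios of 2.29, 3.72, 3.44, 3.70 and 3.96 on replicates 1 to 5. It was thus above 0 on all arrays, with replicate 1 lowest and replicates 2 to 5 within 0.52 log2 of each other. Its mean was 3.42 (SE 0.21), a 10.7-fold up-regulation in chs2Δ (adjusted p = 2.87e-06, limma). Of 6246 genes, SSA1 had rank 18 from the top. With median centring its fold change was 6.61 (adjusted p = 6.84e-06). SSA1 was the only gene of the 10 whose lowest and highest signals over background before normalization were both above those of the wild type, with 777 to 3722 units in chs2Δ and 359 to 885 units in the wild type. On replicate 1 the unnormalized signals were nearly equal, 777 in chs2Δ and 798 in the wild type.

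SSA2, the constitutive partner of SSA1, had log2 ratios of 0.26, 0.94, 0.93, 0.93 and 1.36 on replicates 1 to 5. Replicate 1 was again lowest, and replicates 2, 3 and 4 lay within 0.01 of each other. The mean of 0.88 (SE 0.13) was a 1.84-fold up-regulation (adjusted p = 4.42e-04, limma). With median centring the ratio was 0.04 and not called (adjusted p = 0.79). The unnormalized signal was 1393 to 3267 units in chs2Δ and 3462 to 6243 units in the wild type. SSA1 exceeded SSA2 on 5 of 5 arrays, by 2.03, 2.78, 2.51, 2.77 and 2.59 log2. The mean difference of 2.54 (SD 0.31) had a two-sided p of 0.063 in an exact sign-flip test over the 5 arrays, the smallest that 5 arrays allow, and 0.109 after adjustment over the 7 gene pairs compared.

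SSA3 and SSA4 encode the Ssa proteins that are scarce in unstressed cells and induced by heat and other stresses. SSA4 had log2 ratios of 0.68, 1.32, 1.10, 1.14 and 1.06 on replicates 1 to 5. The arrays all lay above 0, replicate 1 being lowest and replicate 2 highest. The mean of 1.06 (SE 0.09) was a 2.08-fold up-regulation (adjusted p = 1.28e-05, limma). It was 1.53-fold with no background correction. The unnormalized signal of SSA4 was 104 to 318 units in chs2Δ and 130 to 278 units in the wild type. Within arrays it was lower in chs2Δ on replicates 1, 3 and 4 and higher on replicate 2. On replicate 5 it was nearly equal, 135 in chs2Δ and 130 in the wild type.

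SSA3 had log2 ratios of 0.12, 0.52, 0.16, 0.47 and 0.22 on replicates 1 to 5. They were above 0 on all arrays but split by dye, with a mean of 0.17 where chs2Δ carried Cy5 and 0.49 where it carried Cy3, and the arrays of the dyes did not overlap. The mean over arrays was 0.30 (SE 0.07), a 1.23-fold up-regulation (adjusted p = 0.0069, limma). With no background correction it was 1.10-fold (adjusted p = 0.0404, limma). A dye term fitted over all genes gave SSA3 a p of 0.00789 (adjusted p = 0.145, limma). Its unnormalized signal was 53.0 to 169 units in chs2Δ and 89.9 to 260 units in the wild type, above background in both channels on 5 arrays. SSA4 exceeded SSA3 on 5 of 5 arrays, by 0.56 to 0.94 log2, with a mean difference of 0.76 (SD 0.15; exact sign-flip p = 0.063, adjusted p = 0.109). SSA3 also lay below SSA1 on every array, by a mean of -3.13 log2 (SD 0.58, exact sign-flip p = 0.063, adjusted p = 0.109).

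The ratios of SSA4 and SSA2 changed places among the arrays. SSA4 was the higher on 4 of 5 arrays, with differences of 0.42, 0.38, 0.17, 0.21 and -0.31 log2 on replicates 1 to 5. The mean difference of 0.17 (SD 0.29) had an exact sign-flip p of 0.25 and an adjusted p of 0.35. Its size depended on the scaling, being 0.86 with median centring and -0.25 with no background correction.

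Sse1p and Sse2p are the yeast Hsp110 proteins, nucleotide exchange factors of Hsp70. SSE2 is the stress-induced gene of the pair, while SSE1 is expressed constitutively. SSE2 had log2 ratios of 0.52, 1.16, 0.83, 1.21 and 0.91 on replicates 1 to 5. All lay above 0, with both arrays that carried chs2Δ in Cy3 above the 3 that carried it in Cy5. The mean of 0.93 (SE 0.10) was a 1.90-fold up-regulation (adjusted p = 5.85e-05, limma), and the dye term had a p of 0.0142 (adjusted p = 0.161). With no background correction SSE2 was up-regulated 1.44-fold. Its unnormalized signal was 98.9 to 274 units in chs2Δ and 125 to 314 units in the wild type, higher in chs2Δ on replicate 2 only.

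SSE1 had log2 ratios of 0.22, -0.09, 0.06, -0.09 and 0.26 on replicates 1 to 5. Its sign followed the dye, above 0 on the 3 arrays with chs2Δ in Cy5 and below 0 on the 2 with chs2Δ in Cy3. The mean was 0.07 (SE 0.07, 95% interval -0.09 to 0.24), a fold change of 1.05 that did not pass the test (adjusted p = 0.371, limma). The interval excluded a change as large as that of SSE2 at this scaling. With median centring, however, SSE1 had a ratio of -0.71 (adjusted p = 5.89e-05). Its unnormalized signal was 679 to 1405 units in chs2Δ and 2740 to 5342 units in the wild type. With a loess curve drawn without the 10 chaperone genes and without ribosomal protein genes it had -0.18 (adjusted p = 0.0416). Over the 3 arrays with chs2Δ in Cy5 alone it was called higher, at 0.18 (adjusted p = 0.0425).

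SSE2 exceeded SSE1 on 5 of 5 arrays, by 0.29, 1.25, 0.77, 1.30 and 0.65 log2. The mean difference was 0.85 (SD 0.42), with an exact sign-flip p of 0.063 and an adjusted p of 0.109. The difference was 1.47 with median centring, with the same sign on each array, and 0.48 with no background correction. Replicates 2 and 4, with chs2Δ in Cy3, gave the largest differences and replicate 1 the smallest.

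SSB1 and SSB2 encode the Hsp70s that bind nascent chains at the ribosome. SSB1 had log2 ratios of -1.35, -2.25, -1.68, -2.93 and -1.59 on replicates 1 to 5. All were below 0, and the arrays with chs2Δ in Cy3 lay below those with chs2Δ in Cy5 without overlap. The mean of -1.96 (SE 0.21) was a 3.89-fold down-regulation in chs2Δ (adjusted p = 5.07e-05, limma), rank 23 from the bottom of 6246 genes. Its mean was -1.54 with chs2Δ in Cy5 and -2.59 with chs2Δ in Cy3, and the dye term had a p of 0.0015 (adjusted p = 0.134, limma). The down-regulation was 7.17-fold with median centring and 6.01-fold over the 2 arrays with chs2Δ in Cy3.

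SSB2 had log2 ratios of -1.42, -2.43, -1.61, -2.53 and -1.54 on replicates 1 to 5. The arrays were ordered by dye in the same way as for SSB1. The mean of -1.90 (SE 0.17) was a 3.74-fold down-regulation (adjusted p = 2.3e-05, limma) and had rank 27 from the bottom. The mean was -1.52 with chs2Δ in Cy5 and -2.48 with chs2Δ in Cy3 (dye term in limma, adjusted p = 0.0916). With median centring it was 6.93-fold. The unnormalized signal of SSB2 was 459 to 1531 units in chs2Δ and 11014 to 23860 units in the wild type.

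SSB1 and SSB2 differed by less than the spread between arrays. SSB1 minus SSB2 was 0.07, 0.18, -0.07, -0.40 and -0.06 log2 on replicates 1 to 5, with a mean of -0.05 (SD 0.22, exact sign-flip p = 0.6875 before and after adjustment). Both signs occurred among the arrays, and the mean was 0.03 without replicate 4. The proteins are nearly identical, as are those of SSA1 and SSA2, and the probe sequences were not used here, so the part of cross-hybridization in the ratios of any pair was not tested.

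SSZ1 encodes an unusual Hsp70 that forms the ribosome-associated complex with Zuo1p, the J-domain protein that activates Ssb. SSZ1 had log2 ratios of -0.88, -1.24, -1.20, -1.13 and -1.33 on replicates 1 to 5. Replicate 1 was nearest to 0, and the dyes overlapped. The mean of -1.16 (SE 0.07) was a 2.23-fold down-regulation (adjusted p = 2.78e-06, limma), and the dye term had a p of 0.754. With median centring the down-regulation was 3.65-fold. The unnormalized signal was 294 to 631 units in chs2Δ and 2835 to 4143 units in the wild type.

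ZUO1 was read from 1 spot, which was marked as poor on replicate 1, so the fit used 4 arrays. Its log2 ratios were -1.69, -1.13, -1.65 and -1.13 on replicates 2 to 5. The arrays with chs2Δ in Cy3 were lower than those with chs2Δ in Cy5 (dye term in limma, adjusted p = 0.134). The mean of -1.40 (SE 0.12, n = 4) was a 2.64-fold down-regulation (adjusted p = 3.09e-05, limma), and 4.89-fold with median centring. SSZ1 minus ZUO1 was 0.45, -0.07, 0.53 and -0.20 log2 on replicates 2 to 5, with a mean of 0.17 (SD 0.37) and an exact sign-flip p of 0.5, where 4 arrays allow no p below 0.125 (adjusted p = 0.583).

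**Figure D2:**
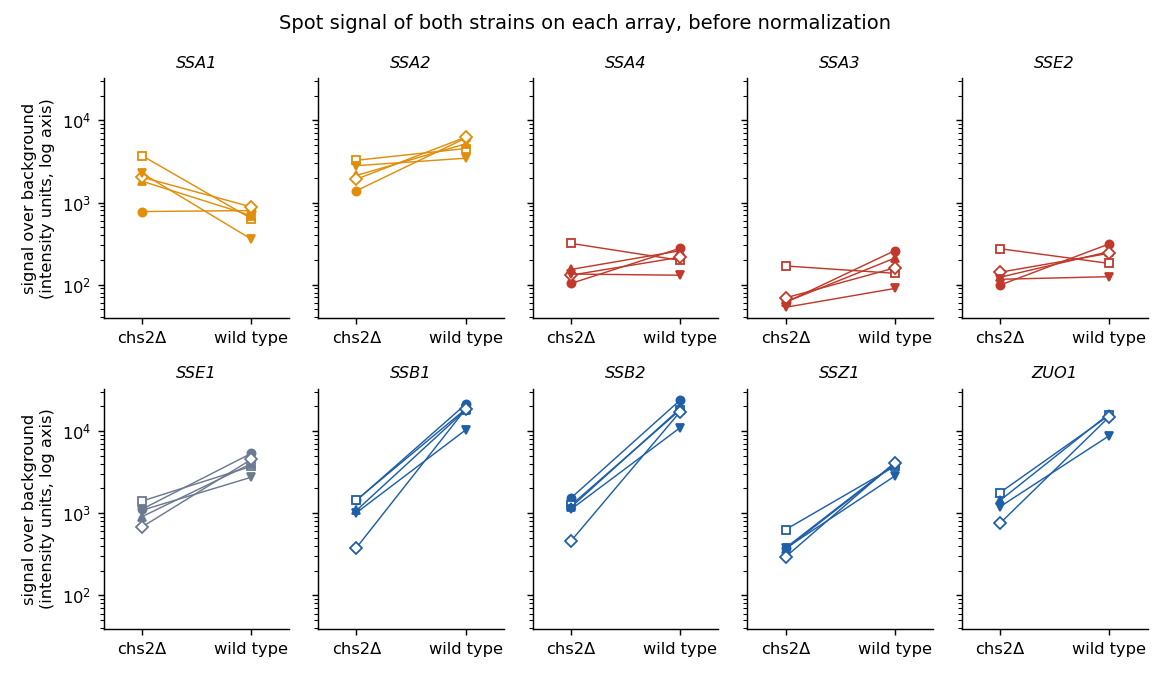
Signal over background of each gene in chs2Δ (left) and wild type (right) on every array, in intensity units on a log axis, before normalization; lines join the channels of 1 array, with symbols as in the plot of log2 ratios by array. The 4 ribosome-bound genes have lower chs2Δ than wild-type signal on every array, as have SSA2 and SSE1, while SSA1 has the higher signal in chs2Δ on replicates 2 to 5. SSA3 and SSE2 have the lower signal in chs2Δ on every array except replicate 2, and SSA4 on replicates 1, 3 and 4. The median signal of all genes is itself lower in chs2Δ.

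The stress-induced and the ribosome-bound genes did not overlap on any array. How often other groups of genes part in this way was not counted. The groups also differed in brightness, at percentiles of 28.5 to 46.7 and of 91.6 to 98.5 among all genes. After loess each group was thus measured against different genes. The mean of SSA3, SSA4 and SSE2 was 0.44, 1.00, 0.70, 0.94 and 0.73 log2 on replicates 1 to 5, and that of the ribosome-bound genes was -1.22, -1.90, -1.40, -2.06 and -1.40, with ZUO1 missing from replicate 1. The difference between the groups was 1.65, 2.90, 2.10, 3.00 and 2.13 log2, largest on replicates 2 and 4. Its mean was 2.36 (SD 0.57, n = 5 arrays). Between the lowest stress-induced gene, which was SSA3 on every array, and the highest ribosome-bound gene there remained 1.00 log2 on replicate 1 and 1.28 to 1.76 on the other arrays. The groups moved further apart on replicates with chs2Δ in Cy3, where the difference averaged 2.95, than on those with Cy5, where it averaged 1.96. It was 1.89 with no background correction, 3.14 with median centring, 2.50 on slide 2 alone and 2.56 on slide 3 alone.

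Ordered by mean ratio, the genes ran SSA1, SSA4, SSE2, SSA2, SSA3, SSE1, SSZ1, ZUO1, SSB2 and SSB1. After loess the steps from SSA1 to SSA4, SSA2 to SSA3, SSE1 to SSZ1 and ZUO1 to SSB2 had the same sign on every array on which both genes were measured. The other neighbours changed places on at least 1 array. With median centring the step from SSA2 to SSA3 was reversed, with means of 0.04 for SSA2 and 0.45 for SSA3. SSE2, at 0.77, then lay well above SSA2. SSA4 was above SSE2 on 4 of 5 arrays by a mean of 0.13 log2 (SD 0.12), and SSE2 above SSA2 on 3 of 5 by 0.04 (SD 0.32). SSA3 was above SSE1 on 3 of 5 arrays by 0.22 (SD 0.34). The distance of 1.23 log2 (SD 0.22) between SSE1 and SSZ1 separated the ribosome-bound genes from all others.

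**Figure D3:**
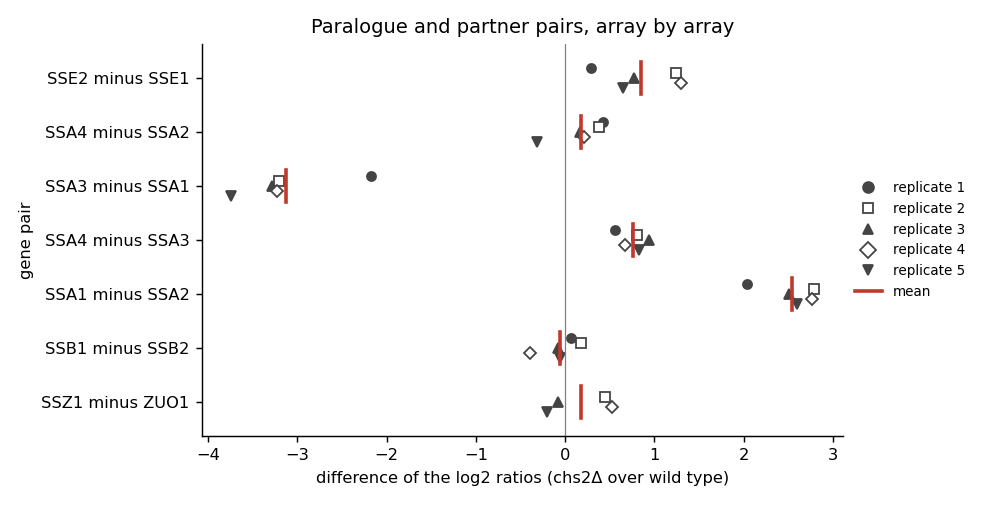
Difference of log2 ratios (horizontal axis) within 7 gene pairs on each array, with the mean as a bar. SSE2 minus SSE1, SSA4 minus SSA3 and SSA1 minus SSA2 are above 0 on 5 of 5 arrays and SSA3 minus SSA1 is below 0 on 5 of 5, while SSA4 minus SSA2, SSB1 minus SSB2 and SSZ1 minus ZUO1 have both signs. With median centring the mean of SSA4 minus SSA2 is 0.86 and SSZ1 minus ZUO1 is above 0 on all 4 arrays.

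The 10 genes were read from 19 spots on each array, and 0 readings were saturated. Of the 95 readings, 6 were marked as poor and left out, 3 of them of SSB1. Duplicate spots of a gene on 1 array differed by at most 0.60 log2, in SSA4 on replicate 4. Replicate 1 gave the ratio nearest to 0 for 8 of the 8 called genes measured on all arrays. The ratios of all genes were also narrowest on that array. The matching share over all called genes was not counted, so this is not read as particular to the set. Scaling the arrays to a common width left the counts at 5 up-regulated and 4 down-regulated genes. The unadjusted dye term was below 0.05 for 6 of the 10 genes and 1291 of all genes, and after adjustment for none of either in limma. How many of all genes had arrays that part by dye was not counted, so such splits are not read as particular to the set. Without background correction SSB2 was the 1 gene of the 10 whose dye term passed after adjustment (adjusted p = 0.037, limma).

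The ratios of these genes depended on the curve fitted within arrays. Measured from ratios with no normalization, loess raised the ratio of SSA3, SSA4 and SSE2 by 0.60 to 1.89 log2, depending on the array. That of the ribosome-bound genes rose by 1.29 to 2.59. For SSA1 and SSA2 the rise was 1.28 to 2.59 and for SSE1 1.33 to 2.57. These rises include the dimness of the whole chs2Δ channel, which median centring removes as well. From median centring to loess, SSA4 went from 0.90 to 1.06 log2 and SSE2 from 0.77 to 0.93. SSA3 went from 0.45 to 0.30 and SSB1 from -2.84 to -1.96. The curve is drawn through all genes, so that its height at a given brightness follows what other genes of that brightness do. With the curve drawn without the 10 genes and without ribosomal protein genes, SSB1 had -2.36 and SSB2 -2.31 log2, and the difference between the stress-induced and ribosome-bound genes was 2.70.

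**Figure D4:**
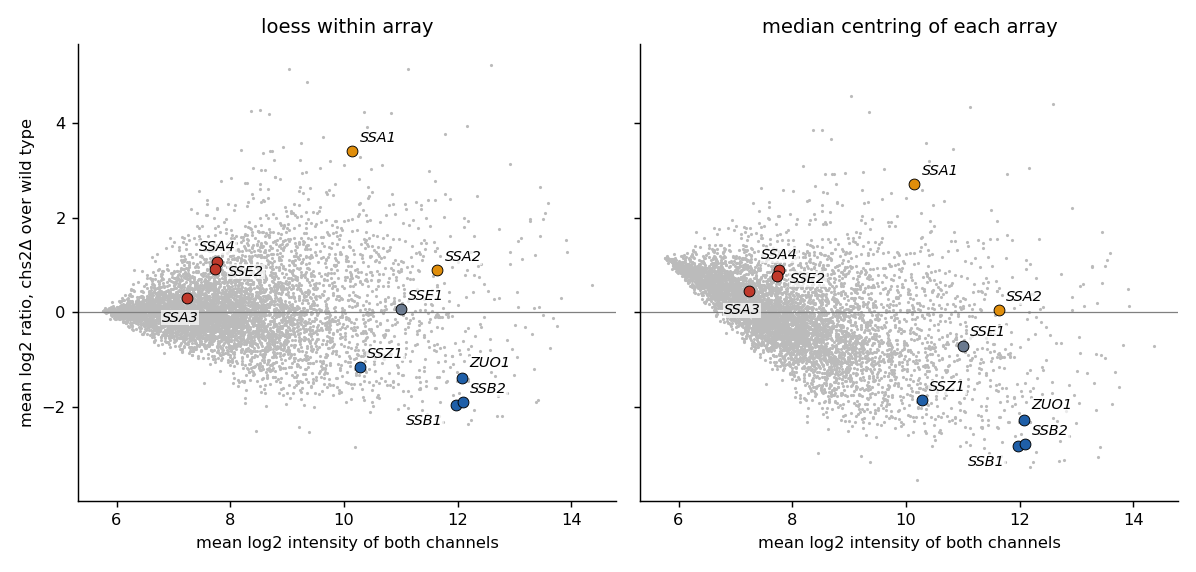
Mean log2 ratio of chs2Δ over wild type against mean log2 intensity of both channels, with all tested genes in grey and the 10 chaperone genes in colour, after loess (left) and after median centring (right). SSA1 stays above 2.7 log2 and SSB1 and SSB2 below -1.9 in both panels, while SSA2 is at 0.88 on the left and 0.04 on the right, and SSE1 at 0.07 on the left and -0.71 on the right.

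The partners of these chaperones were examined as 5 lists with 30 genes in all, of which 11 were up-regulated in chs2Δ (36.7%) and 12 were down-regulated (40.0%). These shares were near the 35.7% and 36% of all genes tested, against which the counts of the single lists also stand. With median centring 8 of the 30 were up-regulated and 17 were down-regulated, and 9 changed sign. Of 12 J-domain partners of cytosolic Hsp70, 5 were up-regulated and 4 down-regulated, with a median of -0.01 log2, the same as over all genes. YDJ1, a general J-domain protein of the cytosol, had log2 ratios of -0.90, -1.33, -1.20, -1.16 and -1.10 on replicates 1 to 5. This was a 2.20-fold down-regulation (adjusted p = 2.36e-06, limma), or 3.57-fold with median centring. SIS1, the essential J-domain protein that works with Ssa on aggregates, had 0.65, 0.78, 0.90, 0.76 and 0.85. It was up-regulated 1.73-fold (adjusted p = 4.82e-06), but with median centring the ratio was 0.16 and not called (adjusted p = 0.0756). YDJ1 and SIS1 thus lay on opposite sides of 0 on each array after loess.

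CWC23, a J-domain protein of the spliceosome, had a mean log2 ratio of 0.55, and JJJ3, which acts in diphthamide synthesis, one of 0.28, both up-regulated. DJP1, a J-domain protein of peroxisomal import, had -0.46 and HLJ1, which is anchored in the endoplasmic reticulum membrane, -0.41, both down-regulated. With median centring 3 J-domain genes were up-regulated and 6 were down-regulated, and the median was -0.22. CAJ1, a J-domain gene singled out after its values were seen, had 0.21 after loess (adjusted p = 0.00522, limma) and -0.50 with median centring (adjusted p = 8.24e-05). DJP1 was then at -1.02 and HLJ1 at -0.97 log2.

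Of 7 exchange factors and cochaperones, 2 were up-regulated and 4 down-regulated, where 35.7% and 36% of all genes were, with a median of -0.26. HSP104, the disaggregase that extracts proteins from aggregates together with Hsp70, had log2 ratios of 1.81, 3.16, 3.03, 3.42 and 3.29 on replicates 1 to 5. It was up-regulated 7.67-fold (adjusted p = 5.76e-06, limma), and 4.99-fold with median centring. As for SSA1, replicate 1 lay lowest. STI1, which links Hsp70 to Hsp90, had a mean log2 ratio of 0.21 (adjusted p = 0.0207), but -0.39 with median centring (adjusted p = 8.91e-04), and it lost the call without replicate 3, 4 or 5 (adjusted p = 0.0546 to 0.0726).

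SGT2, which hands tail-anchored proteins to their targeting pathway, was down-regulated 1.75-fold (mean log2 ratio -0.80, adjusted p = 3.5e-05) and 3.12-fold with median centring. The Hsp90 cochaperones CNS1 and CPR7 had mean log2 ratios of -0.47 and -0.27, the second near the threshold (adjusted p = 0.0486) and not called without replicate 2, 3, 4 or 5 (adjusted p = 0.068 to 0.164). With median centring CNS1 had -1.09, and 1 gene of the list was up-regulated and 6 were down-regulated, with a median of -0.62.

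The nascent polypeptide-associated complex contacts nascent chains at the same exit site as Ssb. Of its 3 genes, 2 were down-regulated, where 36% of all genes were. EGD2, the alpha subunit, had log2 ratios of -1.15, -0.90, -1.09, -0.75 and -0.80 on replicates 1 to 5, and EGD1, the beta subunit, had -0.68, -0.94, -0.72, -1.27 and -0.75. Their means were -0.94 and -0.87 (adjusted p = 8.53e-06 and 4.67e-05, limma), all arrays being below 0. With median centring EGD2 was at -1.81 and EGD1 at -1.58. BTT1, the third gene, which encodes an alternative beta subunit, had -0.10 and was not called (adjusted p = 0.165), but with median centring it had 0.63 and was called higher (adjusted p = 5.97e-05).

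Of 5 Hsp70s of the mitochondrion and the endoplasmic reticulum, 1 was up-regulated and 2 were down-regulated, with a median of -0.09. Of all genes tested, 35.7% were up-regulated and 36% down-regulated. LHS1, the exchange factor of Kar2p in the endoplasmic reticulum, had a mean log2 ratio of -0.54 (adjusted p = 1.77e-04, limma), and -1.04 with median centring. SSC1, the main Hsp70 of the mitochondrial matrix, had -0.22 (adjusted p = 0.0216), was not called without replicate 2 or 4 (adjusted p = 0.0574 to 0.0681) and had -0.94 with median centring. SSQ1, a mitochondrial Hsp70 of iron-sulfur cluster assembly, had 0.25 (adjusted p = 0.00215), but -0.08 with median centring. With median centring 1 gene of the list was up-regulated and 3 were down-regulated, with a median of -0.73.

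All 3 genes of heat shock and general stress transcription factors were called up-regulated after loess, where 35.7% of all genes were, MSN2 being at -0.02 with median centring. MSN4, whose zinc finger protein binds stress response elements, had log2 ratios of 1.29, 1.12, 1.21, 1.10 and 1.18 on replicates 1 to 5. This 2.26-fold change (adjusted p = 6.39e-07, limma) was 1.80-fold with median centring. HSF1, the heat shock transcription factor, had a mean of 0.24 (adjusted p = 0.00444). MSN2, the relative of MSN4, had 0.13 (adjusted p = 0.0391), and no call when any single array was left out (adjusted p = 0.0577 to 0.111).

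**Figure D5:**
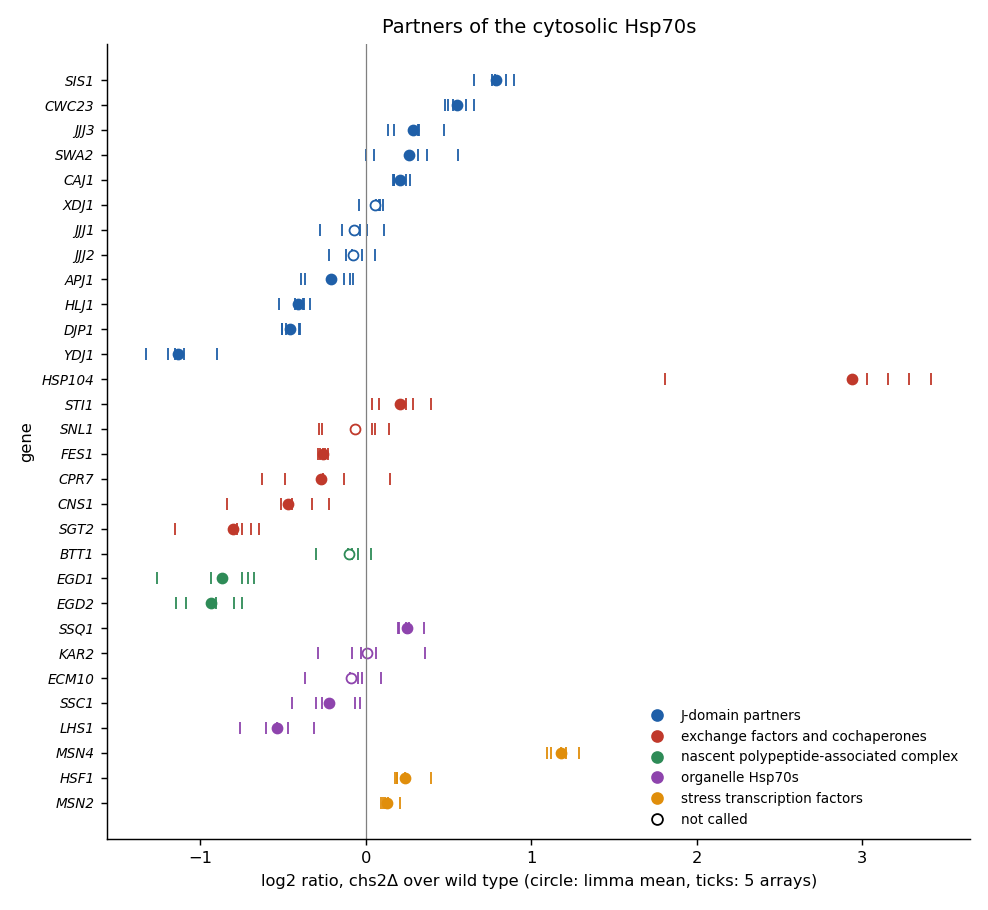
Log2 ratio of chs2Δ over wild type (horizontal axis) of 30 partner genes in 5 lists after loess, with ticks for the 5 arrays and a circle for the limma mean, open where the gene was not called. HSP104 at 2.94 and MSN4 at 1.18 lie farthest to the right and YDJ1 at -1.14 farthest to the left; 6 genes (STI1, SSQ1, MSN2, CAJ1, XDJ1 and KAR2) are right of 0 here and left of 0 with median centring, and 3 genes (BTT1, ECM10 and JJJ2) the reverse.

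Genes with ratios most like those of SSA4 and SSB1 were sought by the root mean squared difference of log2 ratios over the 5 arrays. For SSA4, among 2168 other genes called up-regulated, the nearest were PET100 (0.065), GID11 (0.065), AIM23 (0.069), YSC84 (0.069) and HBT1 (0.077). PET100 acts in cytochrome c oxidase assembly and YSC84 in actin patches. The stress-induced gene SSE2 was at 0.172 from SSA4, with 52 genes nearer. For SSB1, among 2164 other genes called down-regulated, the nearest were RPL9A (0.272), RPS9B (0.292), RLP7 (0.30), RPL9B (0.308) and RPL1A (0.361). Of these, 4 encode ribosomal proteins and RLP7 encodes an assembly factor of the large ribosomal subunit. Ribosomal protein genes made up 105 of the 2164 genes compared (4.85%), and 25 of the 67 whose mean ratio lay within 0.4 log2 of that of SSB1, so nothing particular to SSB1 is read from the 5. SSB2 was at 0.202 from SSB1, with 0 genes nearer.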

How the data were processed

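Each array was scanned by the authors in both dye channels and quantified with ImaGene (version 6.0.0 per the file headers, while the methods name an earlier one). In the 10 deposited scanner files, spots have an intensity, a local background and flags for poor or saturated spots, with no background correction or normalization. The authors also deposited log2 ratios of Cy5 over Cy3, background-corrected and lowess-normalized in limma, which served as an alternative and correlated at 0.999 with the ratios computed here.

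The ratios were computed in R 4.3.3 with limma 3.58.1: normexp with an offset of 50, a global loess curve of span 0.3 on each array, poor spots left out, spots averaged per gene, and ratios turned to chs2Δ over wild type. The functions lmFit and eBayes were fitted over 5 arrays, each of which pairs both strains, with Benjamini-Hochberg adjustment over 6246 genes and calls at an adjusted p below 0.05. For 10 genes of the array no spot was usable, and 500 kept the name on the array. Signal over background is the spot mean minus the background median, and a spot was above background when it exceeded the median by 2 background SD.

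The 7 gene pairs were compared with a two-sided exact sign-flip test. The 10 genes, the partner lists and the pairs were chosen with earlier results of these data known. All 10 genes are named, and of each partner list up to 3 called genes with the largest rise and up to 3 with the largest fall. The arrays were taken as 5 pairs of biological replicate cultures, as the methods state, although the series text also mentions triplicates. The procedure was also run on simulated data, the outcome of which is not given here. No sequences of probes, promoters or proteins were used here, and genome coordinates were not used. The number of arrays and their spread limit the precision.

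The alternatives changed the background correction, its offset, the centring, the scale of the arrays and the treatment of dye and slide, and further the spot flags, dim spots, separate spots, the deposited ratios, the threshold, each dye and leaving out each array. Single slides, the spot median and a loess curve without the chaperone and ribosomal protein genes were alternatives chosen after seeing the data.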

Additional observations from a re-analysis of the deposited data

Results flagged for a closer look

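Of 30 genes measured on 5 arrays and examined for an array far from the others (Dixon's criterion, which chance meets in about 1 of 20 groups), 3 had one, none of them a member of the 10 chaperone genes. HSP104 was at 1.81 log2 on replicate 1, below the other arrays, the same array on which SSA1 was lowest. SGT2 was at -1.16 on replicate 4, below the other arrays, and HSF1 was at 0.40 on replicate 4, above the other arrays. HSP104, SGT2 and HSF1 kept their calls when any single array was left out.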

How the results depend on the processing

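SSA1, SSA3, SSA4, SSE2, SSB1, SSB2, SSZ1 and ZUO1 kept direction and call under all 24 alternatives, SSA1 between 2.72 and 3.83 log2 and SSB1 between -2.84 and -1.54. SSA4 lay between 0.61 and 1.41, SSE2 between 0.52 and 1.25 and SSA3 between 0.13 and 0.50, all lowest without background correction. Median centring in place of loess gave SSE1 -0.71, STI1 -0.39, SSQ1 -0.0761 and MSN2 -0.02, and a difference of 3.14 between stress-induced and ribosome-bound genes. This difference was 1.89 without background correction and 2.95 with chs2Δ in Cy3 only. SSE1 was also below 0 in Cy3 only (-0.0895), on slide 2 alone (-0.0108) and with loess without chaperone and ribosomal protein genes (-0.18), whereas in Cy5 only it was called higher (0.18, adjusted p = 0.0425). SSA4 minus SSA2 was -0.25 without background correction and -0.0502 on slide 3 alone, SSB1 minus SSB2 was 0.055 on slide 2 alone, and SSZ1 minus ZUO1 was -0.14 in Cy5 only. With each spot as a feature of its own, 3403 features were higher and 3537 lower, because more features were tested. The dye term passed in 1 of the 10 genes without background correction, and in 0 with the other background corrections, median centring, scaling between arrays or any array left out, the alternatives for which it was run. When each array was left out in turn, 2026 to 2215 genes were higher and 2030 to 2231 lower, 5 and 4 of the chaperone genes were called each time, the difference between groups was 2.20 to 2.53, and SSB1 minus SSB2 was -0.1145 to 0.0304. Apart from the alternatives' own construction, the cause of these shifts was not tested.

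SSA3 was read at 53.0 to 169 units over background in chs2Δ, and ZUO1 rested on 1 spot and 4 arrays. The loess step assumes that most genes of a given brightness do not differ between strains, whereas 2227 and 2246 of 6246 genes were called. After loess every direction given here thus holds only relative to genes of like brightness, and the calls of SSA2 and SSE1 changed with median centring. Before normalization the signals of SSA3, SSA4 and SSE2 were lower in chs2Δ on most arrays, so their up-regulation is relative as well. With 5 arrays the exact test of a gene pair has no p below 0.063.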
